A study of Arabidopsis thaliana with 4 samples.

Results

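The genes described here were chosen by their measured signals, which were at least 2-fold lower in both silenced group 2 and silenced group 3 than in the column of the GUS control. Probe set signals under 32, which lie near background, were set to 32 first. Of 22746 probe sets on the array, control probe sets left out, 64 met this rule (0.281%). Taken singly, 2.5% of probe sets were at least 2-fold lower in silenced group 2 and 2.69% in silenced group 3. Of the 64, 3 were left out by name (BHLH101, AT4G21870 and XTH16), which leaves 61 members. A probe set is a group of short probes for a transcript. For 32 of the 61 members the array's annotation names 1 gene; 27 have no named gene here and 2 have several.

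The plants were Arabidopsis thaliana that carried an inverted repeat made from the reading frame of myosin XI-K, in 3 independent groups of plants called silenced groups here, or that constitutively expressed the GUS reading frame as the control. Each group of plants gave 1 Affymetrix array, hybridised with RNA of rosette leaves, cauline leaves and flowers mixed in equal parts. Ecotype, age, number of pooled plants and the promoter of the repeat are not given in the labels. The series asked how the 17 myosin RNAs compare between silenced and control plants.

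The GUS column and the silenced group 1 column did not differ in any of 22810 rows, while other pairs of arrays shared 56 to 67 rows. They were counted as 1 array, called the common array, and which of these plant groups it measured cannot be told apart. The members are therefore lower in silenced groups 2 and 3 than in an array that is labelled both as control and as silenced, and no difference is assigned to silencing. A high reading on that lone array alone would give the same pattern and cannot be told apart from a low level in both silenced groups. Array medians lay between 156.1 and 170.25, and between 24.9% and 27.6% of signals were under 32. Of the markers, the leaf gene RCA had 21684.4 on the common array and 20964.3 and 22392.2 in silenced groups 2 and 3, and LHCB4.1 had 20086.6, 14452.3 and 20157.2. The anther gene AMS had 199.1, 150.5 and 188.7. None of the 7 floral organ identity genes has a named probe set here, so the flower share was not checked with them. The pollen genes ACT12 and ANX1 had at most 46.3, and the root genes PYK10 and EXPA7 at most 45.7. In bulk RNA, fewer cells of a type and less RNA per cell cannot be told apart.

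Myosin XI-K is a motor that carries organelles along actin filaments, and RNA interference lowers an mRNA through small RNAs cut from the double-stranded repeat. The named members with a known role do not belong to 1 pathway. By known role they include enzymes that attach acyl or methyl groups to small molecules, and regulators of leaf and leaf hair patterning. Others are growth genes that respond to brassinosteroid and auxin, immune proteins with a Toll/interleukin receptor (TIR) domain, transporters and a peptide of the iron deficiency response. Acylation and methylation are common ways in which plants switch hormones and defence compounds between active, inactive and volatile forms.

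Because the rule used the contrast with the common array, the values against it are given as a description, without a test of any member. The median of the members' log2 differences, taken as the mean of silenced groups 2 and 3 minus the common array, was -1.35, and over all probe sets it was 0.00. Of the 61 members, 18 had, on floored signals, a mean difference of at least 3-fold, 4 of at least 4-fold and 1 of at least 8-fold. Their signals on the common array ran from 66.0 to 8745.3 with a median of 395.7, against a median of 155.2 over all 22746 probe sets. Their median percentile was 69.2 on the common array and 43.5 and 47.3 on those of silenced groups 2 and 3. The rule sets this order, since with the floor it admits only probe sets of at least 64 on the common array, and 8330 of all 22746 were under 64 there.

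**Figure D1:**
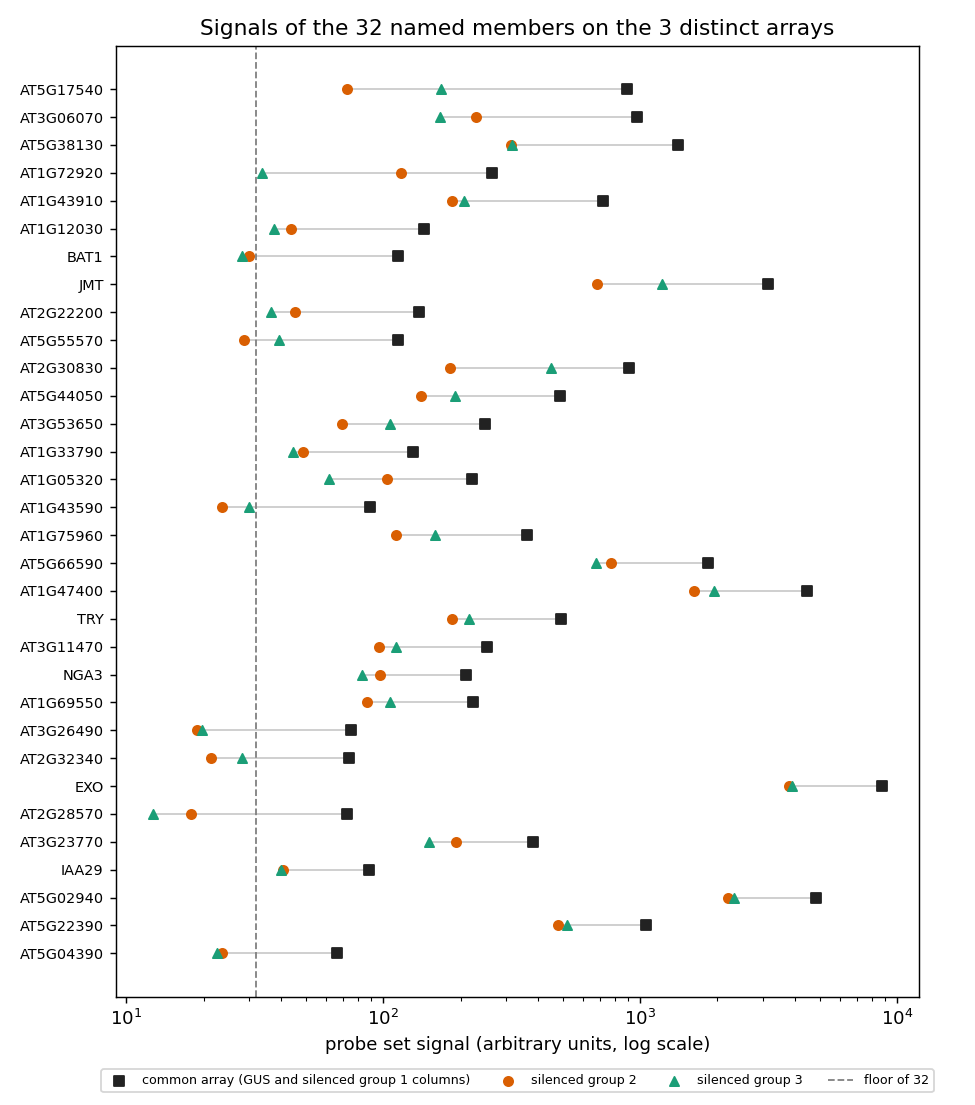
Signals of the 32 named members (rows, from the largest to the smallest mean log2 difference) on the 3 distinct arrays; the horizontal axis is the probe set signal on a log scale, each symbol is 1 array, and the dashed line is the floor of 32. Every square (common array) lies to the right of both silenced-group symbols, as the rule requires, from 66.0 for AT5G04390 to 8745.3 for EXO.

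Acyltransferases of the BAHD family transfer acyl groups from coenzyme A to alcohols and amines. They gave the largest difference on floored signals and 3 of the 32 named members. The share of this family over all named probe sets was not counted, so nothing is read from the 3. AT5G17540, a family member of HXXXD type, had a signal of 891.3 on the common array, 72.5 in silenced group 2 and 167.6 in silenced group 3. It was lowest in silenced group 2, with a log2 difference of -3.02 ± 0.85 (SD, n = 2), or 8.09-fold. Here and below, the SD is only the spread between the arrays of silenced groups 2 and 3. It does not hold the unknown spread of the common array. AT5G38130, of the same type, had 1398.4, 314.6 and 318.0. Its levels in the silenced groups were nearly equal, and its log2 difference was -2.14 ± 0.01 (SD, n = 2). BAT1, also called PIZZA, acylates brassinosteroids and so lowers the active hormone; it had 113.7 on the common array against 30 and 28.1. Both values of BAT1 lie under 32, so it was at least 3.55-fold lower against that floor.

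A list of 16 BAHD genes was drawn up after the members had been seen, to show the rest of the family. Of these, 2 (SCT and ACT) were dropped because their names differed from those of the reference table. Of the rest, 9 had a named probe set. The 3 members were the only ones at least 2-fold lower in both silenced groups (0.281% of all probe sets were), and 0 were 2-fold higher. As the list was drawn up with the members known, the 3 of 9 are not read against that share. Over the 6 of the 9 genes with a signal of at least 32 on some array the median log2 difference was -1.10. Over all probe sets it was 0.00. As 3 of the 6 are the members themselves, that median is set in part by how they were chosen. HCT, a lignin enzyme, had 1394.4 on the common array and 1286.6 and 900.8 in silenced groups 2 and 3. SHT, which makes spermidine conjugates of the pollen coat, had 411.7, 419.3 and 489.7. CHAT, which forms a leaf volatile ester, had 262.7, 424.3 and 254.4. Signals of these 3 genes were in the range of the members, but they lay within 2-fold of the common array in both silenced groups. FACT, SDT and 5MAT were under 32 on all 3 arrays, so no order can be read from them.

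**Figure D2:**
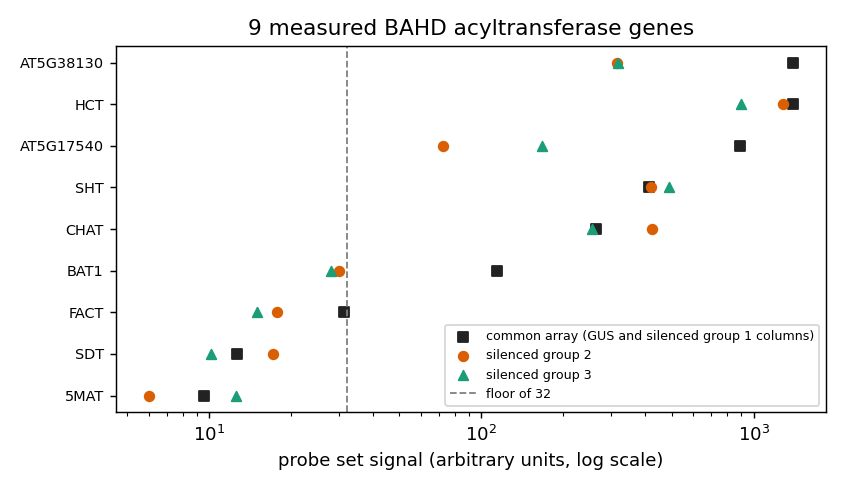
Signals of the 9 measured BAHD acyltransferase genes (rows, ordered by the common array) on a log scale; each symbol is 1 array and the dashed line is the floor of 32. In AT5G38130, AT5G17540 and BAT1 both silenced-group symbols lie left of the common array by at least 2-fold, while HCT, SHT and CHAT have symbols close together.

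Among the other enzymes, JMT was the brightest. It methylates jasmonic acid, a wound and defence hormone, to the volatile methyl jasmonate. JMT had a signal of 3156.0 on the common array, 678.6 in silenced group 2 and 1221.3 in silenced group 3, a log2 difference of -1.79 ± 0.60 (SD, n = 2). It lay at percentile 95.1 of the common array. In the list of 21 jasmonate genes JMT is the only one with a named probe set, so the pathway around it could not be read. Of 6 methyltransferases of its family, SABATH, 2 had one, and their median log2 difference was -1.37. As 1 of these 2 is JMT itself, that median is set in part by how JMT was chosen. The other, BSMT1, which makes methyl salicylate and methyl benzoate, had 10908.4, 7783.2 and 4148.9. It was lower in both silenced groups but by less than 2-fold in silenced group 2, so it is no member.

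The remaining enzymes were 2.26-fold to 3.68-fold lower. AT1G43910, an ATPase of the AAA type, had 718.3 on the common array, 184.5 in silenced group 2 and 206.8 in silenced group 3. AT2G30830, an oxygenase that uses 2-oxoglutarate and iron, had 907.7, 182.4 and 449.4. On floored signals it had the largest fold excess of silenced group 3 over silenced group 2 of any member. In silenced group 3 it was only 2.02-fold lower than the common array. AT1G75960, an AMP-dependent acyl-activating enzyme, had 361.7, 111.8 and 158.6. AT3G11470, of the phosphopantetheinyl transferase family, had 252.9, 96.6 and 111.9, from a probe set whose suffix marks probes that can match more than 1 transcript. AT3G23770, a glycosyl hydrolase of the beta-1,3-glucanase family, had 382.8, 191.2 and 150.4. It is the member closest to the threshold, at 2.00-fold in silenced group 2.

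Transcription factors and patterning regulators were of middling or low signal. TRY, a small MYB-type protein that keeps cells next to a leaf hair from becoming hairs, had 493.6 on the common array, 184.9 in silenced group 2 and 216.3 in silenced group 3. Its log2 difference was -1.30 ± 0.16 (SD, n = 2). It is the only one of 12 trichome patterning genes with a named probe set here. NGA3, a B3-domain factor that shapes leaf margins and the style, had 210.6, 97.2 and 82.8. AT2G22200, a factor of the AP2/ERF family, had 137.9, 45.3 and 36.5. Both were lowest in silenced group 3, unlike TRY, and AT2G22200 came close to the floor. In the AP2/ERF list, which does not hold AT2G22200, 1 of 16 genes had a named probe set, TINY, with 37.7, 71.2 and 70.2, a log2 difference of 0.91. AT5G04390, a C2H2 zinc finger protein, had 66.0 on the common array and under 32 in both silenced groups, so it was at least 2.06-fold lower against that floor.

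Growth genes included the brightest member. EXO (EXORDIUM) is a cell wall protein that brassinosteroid induces and that promotes leaf growth. It had 8745.3 on the common array, 3787.1 in silenced group 2 and 3902.1 in silenced group 3, a log2 difference of -1.19 ± 0.03 (SD, n = 2). The values of the silenced groups lay close together, and both were below the common array. IAA29, an Aux/IAA repressor that auxin and shade induce, had 88.0, 40.9 and 40.1. It was dim, yet all 3 values were over 32. In the brassinosteroid list BAT1 is the only 1 of 9 genes with a named probe set. XTH16, which remodels cell wall xyloglucan and was left out by name, had 1989.5, 663.9 and 795.1. AT5G22390, for which no role is given here, had 1054.0, 479.6 and 520.7.

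Immune and defence genes formed a further group. AT1G72920, which encodes a TIR domain protein of the immune receptor class, had 264.9 on the common array, 117.0 in silenced group 2 and 33.8 in silenced group 3. Its log2 difference was -2.07 ± 1.27 (SD, n = 2), the widest spread of any named member. Its neighbours on chromosome 1 within 2 genes that have a named probe set, AT1G72900 and AT1G72940, are also TIR genes. AT1G72900 had 854.2, 657.9 and 165.7, and AT1G72940 had 492.2, 296.3 and 262.2. Like AT1G72920 they were lowest in silenced group 3, and neither was 2-fold lower in silenced group 2. AT1G69550, a receptor with TIR, nucleotide-binding and leucine-rich repeat domains, had 224.5, 86.7 and 106.0. AT5G66590, a secreted protein related to the pathogenesis protein PR-1, had 1839.1, 773.8 and 670.9. AT1G33790, of the jacalin lectin family, had 131.0, 48.6 and 44.6. In the list of immune and salicylate genes 1 of 13 had a named probe set, SAG101, with a log2 difference of -0.72.

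Transport and nutrient genes gave 3 named members, of which AT5G02940 and AT1G47400 were bright. AT1G47400, known as IRONMAN 1, encodes a small peptide that promotes iron uptake. It had 4449.4 on the common array, 1626.6 in silenced group 2 and 1941.7 in silenced group 3, a log2 difference of -1.32 ± 0.18 (SD, n = 2). BHLH101, an iron deficiency factor left out by name, had 239.8, 96.7 and 36.4. AT5G02940, an ion channel of the plastid envelope, had 4849.4, 2203.1 and 2314.1. AT5G44050, a transporter of the MATE family, had 489.1, 139.8 and 190.0. The silenced groups differed little for AT1G47400 and AT5G02940, and both genes stayed well above background on every array.

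AT3G06070 had the second largest difference of the named members on floored signals, with 969.8 on the common array, 229.5 in silenced group 2 and 166.9 in silenced group 3. Its log2 difference was -2.31 ± 0.32 (SD, n = 2), and no role is given for it here. AT3G53650, a histone H2B gene, had 250, 68.9 and 106.4. AT1G12030, of the DUF506 family, had 144.5, 43.8 and 37.6. AT5G55570 had 114.5, 28.7 and 39.4, and AT1G05320 had 221.9, 103.4 and 61.8. The last of these was lowest in silenced group 3, whereas AT3G53650 was lowest in silenced group 2. AT5G55570 was under 32 in silenced group 2 and close to it in silenced group 3, so no order of the 2 is read.

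Dim members rest on the floor. In 8 of the 61 members both silenced-group signals were under 32, and in 3 only 1 was. Besides BAT1 and AT5G04390, the named members under 32 in both silenced groups were AT1G43590, AT3G26490, AT2G32340 and AT2G28570. AT3G26490, of the NPH3 family of phototropism proteins, had 74.7 on the common array. AT1G43590 had 88.8 there, AT2G32340 73.5 and AT2G28570 72.3. Against the floor they were at least 2.26-fold to 2.77-fold lower. A member at the floor in both silenced groups needs a signal of at least 64 on the common array to meet the rule.

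The 29 members without 1 named gene were brighter, with a median of 517.1 on the common array against 258.9 for the 32 named members. Their mean log2 differences ran from -1.86 to -1.02. Among the 27 of them that were not under 32 in both silenced groups, the probe set 254323_at had the largest difference, with 395.7 on the common array, 91.2 in silenced group 2 and 130.9 in silenced group 3. The brightest, 251826_at, had 2174.3, 953.5 and 955.2. On floored signals none of the 29 reached a mean difference of 4-fold. For 264323_at, with 109.8 on the common array against 3.6 and 15.9, the 3.43-fold difference is only a lower bound, so its rank is not known.

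**Figure D3:**
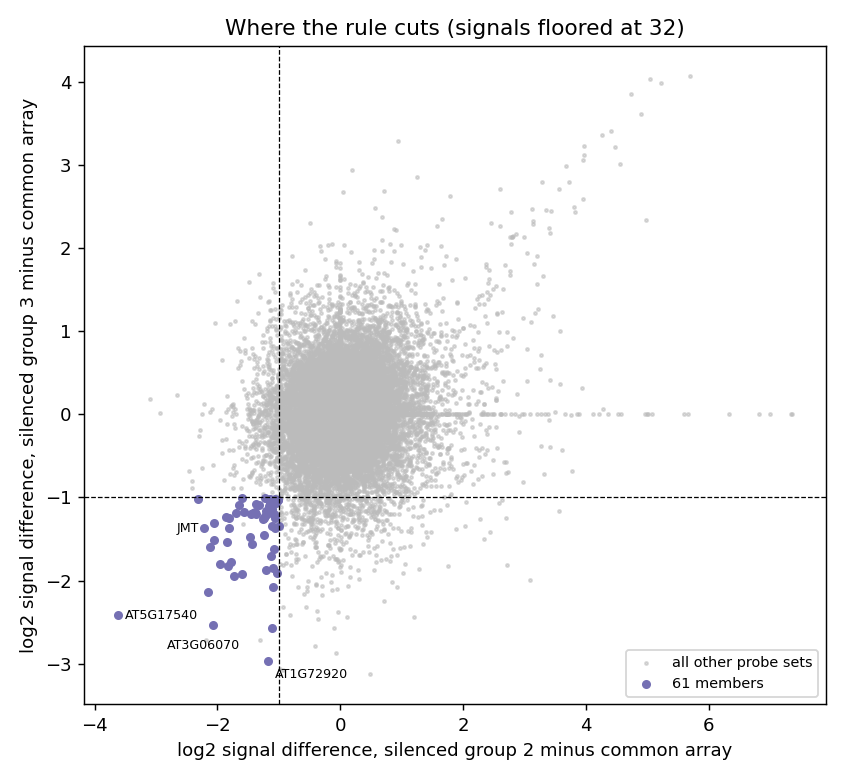
Log2 signal difference from the common array in silenced group 2 (horizontal axis) and silenced group 3 (vertical axis) for all 22746 probe sets, with signals floored at 32; the 61 members are in purple and the dashed lines mark 2-fold lower. Most members lie near the corner at -1 and -1, and the members farthest out are AT5G17540 in silenced group 2 and AT1G72920 in silenced group 3.

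The rule did not set the order of silenced groups 2 and 3. With a signal of at least 64 in either of these arrays, 43 members could be compared, and 4 of them (9.3%) were at least 2-fold apart. Over all 15554 such probe sets, 18.3% were at least 2-fold apart. Signals were lower in silenced group 2 than in silenced group 3 for 26 of the 43 members (60.5%) and for 48.7% of all. The 4 were AT5G17540 and AT2G30830, lower in silenced group 2, and AT1G72920 and the unnamed 266693_at, lower in silenced group 3. The median absolute log2 difference between these arrays was 0.39 for the members and 0.47 for all. With 1 array for each group this was not tested. A member must be low on both arrays, which bears on how far apart they can lie.

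**Figure D4:**
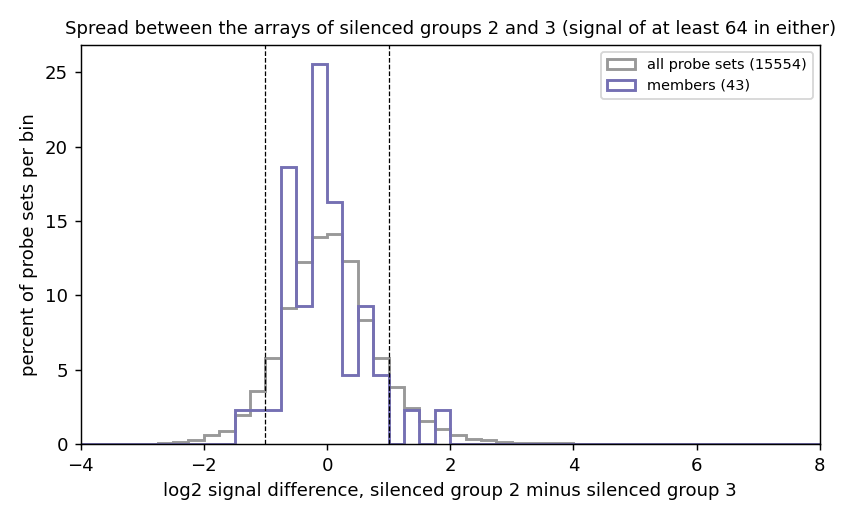
Distribution of the log2 signal difference between silenced groups 2 and 3 for 43 members (purple) and for all 15554 probe sets (grey) with a signal of at least 64 in either array, as percent of probe sets per bin; dashed lines mark 2-fold. The members' median was -0.05 and that of all probe sets 0.02.

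In AT1G72920, AT2G30830 and 266693_at the silenced groups lay farther from each other than the nearer of them lay from the common array. The rule fixes a gap of at least 2-fold from the common array for every member, so no count of gaps is read as support. The common array has no replicate, so its own spread is unknown.

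Of the 32 named members 31 matched a gene of the reference table. On chromosomes 1 to 5 lay 11, 4, 4, 3 and 9 of them, or 35.5%, 12.9%, 12.9%, 9.7% and 29.0%. Over all 13286 named genes the shares were 25.7%, 16.3%, 20.5%, 14.6% and 22.4%. The difference was not tested. The closest pair, BAT1 and IAA29, lay 41 protein-coding genes apart. Of 59 probe sets for genes within 2 places of a member, 0 were at least 2-fold lower in both silenced groups (0.281% of all were) and 0 at least 2-fold higher (0.681% of all were). So few probe sets would hardly hold a call at those shares, and nothing is read from the 0. The nearest to the rule was AT1G72940, described above. 4CL8, next to AT5G38130, had 1207.5 on the common array against 360.3 and 773.5, so it was lower in both but by over 2-fold in silenced group 2 alone. Median gene length was 1803 bases for the members and 2105 bases over 13286 named genes.

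The threshold cut through a dense range. The weaker of the log2 differences lay between -1.1 and -1 for 21 probe sets inside the rule and between -1 and -0.9 for 27 outside it. Just outside was AT2G19780, with 477.8 on the common array and 242.9 and 210.8 in silenced groups 2 and 3, a weaker log2 difference of -0.98. Also outside was the probe set of AT4G24350 alone, with 1514.6, 770.4 and 434.1. The member 254163_s_at, annotated to both AT4G24350 and AT4G24340, had 2120.0, 1043.8 and 565.8. AT3G23770, AT2G30830 and AT5G22390 were the named members closest inside, 2.00-fold, 2.02-fold and 2.02-fold lower in the silenced group that was nearer to the common array. AT5G04390, AT5G02940 and AT1G69550 also lay in this range, with weaker log2 differences of -1.04, -1.07 and -1.08.

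Of the other lists, none had a gene that was at least 2-fold lower or higher in both silenced groups. The touch genes CML38 and STZ, 2 of 8 with a named probe set, had a median log2 difference of -0.23. GI, the only 1 of 11 clock genes with one, had 665.3 on the common array, 1387.2 in silenced group 2 and 824.5 in silenced group 3. At least 2-fold higher signals in both silenced groups were found for 155 of 22746 probe sets (0.681%), against the 64 lower.

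A limma fit across all probe sets does not add a usable error. With signals floored at 32 it called 146 lower probe sets at an adjusted p of 0.05 (0.642%), but 143 of them had both silenced-group signals at the floor and hence a spread of 0, and 6 of the 146 were at least 2-fold lower in both groups. After a filter on dim signals limma called 0 of 15922 as lower, with 48 at an unadjusted p under 0.05 and a smallest adjusted p of 0.763.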

How the data were processed

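Probe set signals of 4 arrays were used. The authors deposited linear intensity values. GCOS and MAS5 are named, per the submitters' processing notes, with no version given in those notes. Column means after trimming 2% from both ends were 500.05 or 500.06, so the arrays were not scaled again. The number of arrays limits the precision. Labels call the plant groups independent; with 1 array each, any spread is that between arrays.

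Control probe sets (64) do not enter. Gene names come from the platform annotation, updated by gene identifier in the TAIR10.1 table: 13513 probe sets have 1 gene (13436 matched), 503 several and 8730 none. Signals were floored at 32 and put on the log2 scale. R 4.3.3 and limma 3.58.1 (lmFit, eBayes with intensity trend, Benjamini-Hochberg) compared silenced groups 2 and 3 (n = 2) with the common array (n = 1). Tested on simulated data, the fit on floored signals did not recover the changes put in. Fits without the floor recovered few or none of the 4-fold changes. With a filter on dim signals they recovered nearly all 16-fold changes, and fewer at larger folds. The filtered fit reported above kept the floor, a setting that was not simulated. The limma calls are therefore given but not used, and a lack of calls is not read as a lack of change. Members and gene lists were chosen with earlier results of these data known, and the BAHD list after the members were seen. Every named member is given; lists are read by counts, with the 2 brightest measured genes, and a gene with several probe sets by the brightest. Known roles are background. Genes without a named probe set were not analysed here, nor were listed genes whose name differed from the reference table, such as A9. Promoter and protein sequences were not used here, and myosin XI-K is among the genes not named. Alternatives changed the floor, scaling, threshold, filter and arrays.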

Additional observations from a re-analysis of the deposited data

How the results depend on the processing

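The alternatives were chosen with earlier results of these data known. The 61 members became 645 without a floor, 146 with a floor of 16 and 105 with an offset of 16 (45 of the 61 among them), since dim probe sets then enter; the floor of 64 kept 47. Before names were left out, the 64 probe sets became 651, 149 and 108. Quantile normalisation gave 83 members (60 shared) and median centring 82 (61 shared); median centring moved the median log2 difference of silenced group 2 from 0.02 to -0.11 over probe sets with at least 64 on the common array. A threshold of 1.5-fold gave 372 members and of 3-fold 9. Leaving out either silenced group gave 563 to 603 members and 568 to 611 probe sets before names were left out. The median log2 difference of the original 61 members, not of the new sets, stayed between -1.44 and -1.23 in all settings run for it. The rule chose these members as lower, so this is not read as support. Of 256 values of named members under alternatives 0 changed sign. The members were chosen as lower on both arrays, so this was all but fixed and is not read as support. The values ran from -3.62 to -0.04, the last with a floor of 64. Among the original 61 members, the number with silenced groups 2 and 3 at least 2-fold apart was 3 with a floor of 64 and 4 in the other settings. The 146 lower probe sets of limma became 353 with quantile normalisation and 221 with median centring, and 0 without a floor, with the filter on dim signals, without the intensity trend and with all 4 columns as labelled; at an unadjusted p under 0.05 these 4 gave 98, 48, 637 and 0. Of the 146, 143 had both silenced-group signals at the floor. Without an silenced group no residual degrees of freedom remain, so limma was not run. No paired analysis was possible because the GUS plants bear no number that matches a silenced group. The comparison of promoter and protein sequences was not run. Signals under 32 limit what can be said of dim members.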
